A study of Homo sapiens with 22 samples.

Results

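The genes that copy the genome in S phase were followed across RNA-seq libraries of RPTEC, a human renal proximal tubule epithelial cell line immortalized with hTERT. The list holds 44 genes picked by function: loaders of the replicative helicase, its activators, polymerases, clamp proteins, makers of deoxynucleotides, chromatin factors at the fork and regulators of the G1 to S step. Of these, 43 had a row among the 36859 genes in the table and 1 was not analysed here. A minimum of 10 normalized counts in at least 2 libraries was reached by 39 of the 43, out of 14585 genes that reached it. MCM6, GINS1, GINS2 and E2F2 stayed below it, so counts over the 39 say nothing of these.

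There were 22 libraries in 11 groups of 2. In 2% serum, these were WT cells, WT cells given 10 ng per ml TGF-β for 72 h, the KO1 and KO2 clones and a line labelled KO2 rescue. KO1 and KO2 are single-cell clones in which CRISPR/Cas9 cut exon 3 of SETD2, the enzyme that places trimethylation on lysine 36 of histone H3. In 10% serum, these were Rescue1 and Rescue2, which are single colonies of KO2 cells that carry a lentiviral SETD2 with a 3×FLAG tag, and WT cells carrying a lentiviral eGFP, SOX2, OCT2 or PRRX1, kept as selected bulk populations. All 11 groups share the hTERT gene that immortalizes them. KO2 and the rescue clones therefore differ in serum, lentiviral transduction, blasticidin selection and renewed cloning as well as in SETD2. WT and the eGFP line differ in serum, vector and puromycin selection. The rescue clones and the eGFP line differ in origin, cloning and selection drug as well as in SETD2. The parts of these pairs cannot be told apart. The labels do not say that the replicates are separate cultures, so the p-values measure the spread between libraries, which may be technical.

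DNA replication is prepared in G1, when ORC, CDC6 and CDT1 load a ring of MCM2 to MCM7 onto origins. CDC7 kinase, CDC45 and the GINS complex then turn the ring into a running helicase, and polymerases α, δ and ε follow with the PCNA clamp, its RFC loader, FEN1 and LIG1. Transcription of most of these genes is held down in quiescent cells by RB family proteins on E2F factors and released late in G1, so their mRNAs are commonly read as a sign of cycling cells. RRM2, the regulated subunit of ribonucleotide reductase, is of interest because SETD2 and its histone mark have been linked to RRM2 transcription and deoxynucleotide supply. In bulk libraries, fewer cells in S phase and less of these mRNAs in each cell cannot be told apart.

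Letters that E2F factors bind were found near the start of many genes of the list, and examples are shown because they were far commoner there than in all promoters. RefSeq windows (GRCh38.p14, 250 bases before to 50 after a start) were matched for 39 of the 43 genes. The letters searched, on both strands, were TTTCCCGC, TTTCGCGC, TTTGCCGC and TTTGGCGC, and some matches overlap each other on opposite strands. At least 1 match lay in 23 of the 52 windows of the list (44.2%), from 22 genes, and in 3.3% of all 35116 windows. CCAAT, the box bound by NF-Y, was in 53.8% of the windows of the list and 34.6% of all windows, and TTTGAA, the letters of the CHR element of genes that peak in G2, in 1.9% and 15.2%. Among tested genes with a window, the E2F letters were in 12 of 24 called in at least 1 comparison below and in 6 of 11 called in none. The list's genes were named by function, and no site was tested for binding. For 10 genes called in at least 1 comparison, 30 bases around the match nearest the start are given 5′ to 3′ on the strand of the gene, with the match in capitals. GCGGGAAA and GCGCCAAA are TTTCCCGC and TTTGGCGC read on the opposite strand.
CDC6 (chr17:40287875-40287904, plus strand): ggccattcggaTTTGGCGCgagcgcggctg
CDC25A (chr3:48188443-48188472, minus strand): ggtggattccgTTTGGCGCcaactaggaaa
MCM7 (chr7:100101388-100101417, minus strand): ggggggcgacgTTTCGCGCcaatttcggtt
POLA2 (chr11:65261898-65261927, plus strand): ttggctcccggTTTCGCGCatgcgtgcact
POLA1 (chrX:24693770-24693799, plus strand): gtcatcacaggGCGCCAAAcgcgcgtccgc
POLE (chr12:132687342-132687371, minus strand): tgggtgggagcGCGCCAAAtttctcccctg
GINS3 (chr16:58392455-58392484, plus strand): cgtccccgggcGCGGGAAAcgagtttcaat
TYMS (chr18:657603-657632, plus strand): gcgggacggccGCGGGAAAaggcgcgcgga
UHRF1 (chr19:4909476-4909505, plus strand): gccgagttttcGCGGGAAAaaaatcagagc
LIG1 (chr19:48170440-48170469, minus strand): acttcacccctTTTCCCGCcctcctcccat
The match began 7 bases after the RefSeq start in CDC6, 5 before it in GINS3, 9 before it in MCM7 and 137 before it in POLA1. The letters were not in the RefSeq windows of RRM2, MCM10, CDC45, ORC6 or RFC4, which says nothing of other letters or of sequence outside the windows.

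Values are normalized counts, recovered from the deposited log2 values, and totals over all genes ran from 11674491 to 16758645 per library. Levels cannot be compared between genes in this table, since rows of some genes are far lower than their product requires. MCM2 to MCM7 form a ring with 1 copy of each, yet in WT the mean per kilobase of longest coding transcript was 1062 normalized counts for MCM7, 674 for MCM4, 322 for MCM5, 9.87 for MCM3, 1.73 for MCM6 and 1.63 for MCM2. The same held for genes outside the list: 27 of 75 ribosomal protein genes were under 1000 per kilobase, from 10.3 for RPL39, against 29849 for RPL41. A row near 0 is therefore no sign that the gene is silent, and the cause was not tested. Counts and medians below are over all 39 tested genes. Of these, 18 had a mean of at least 100 normalized counts over the 22 libraries and are the better measured. Duplicates of the 18 differed by a median of 0.34 on the log2 scale, against 0.85 for the other 21 tested genes.

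SETD2 mRNA was 1852 and 2061 normalized counts in WT, 1046 to 1130 in the KO clones and 9764 to 10445 in the rescue clones. In the libraries labelled KO2 rescue it was 835 and 820, no higher than in KO2, so these libraries are named by their label throughout. The renal epithelial markers PAX8, KRT8, KRT18, KRT19 and EPCAM were above 3 normalized counts in every group. Of 7 markers of differentiated proximal tubule, LRP2, SLC34A1 and SLC5A2 were not above 3 in either WT library. The others were above it in WT: GGT1 at 666 and 893, CUBN at 34.6 and 13.9, ANPEP at 29.7 and 28.6 and AQP1 at 123.7 and 4.8. The summed level of 3 leukocyte markers (PTPRC, CD14, CD3E) was at most 20.1 in any library, with CD3E at 0 in WT and both KO clones, and that of 4 endothelial markers (PECAM1, CDH5, VWF, KDR) at most 154. The sum of 4 fibroblast markers (DCN, LUM, COL1A1, PDGFRA), mostly DCN or COL1A1, was 824 to 12413 in WT. It reached 46278 to 47747 under TGF-β, 223328 to 236441 in KO1 and 98932 to 102521 in KO2. In the rescue clones it was 795 to 1486, and it was 1948 to 2327 in the eGFP line. LUM was at 0 in 1 WT and 1 Rescue1 library. Different genes carried the sum. Under TGF-β COL1A1 was 46598 and 45007 and DCN 1049 and 1083. In KO1 DCN was 234809 and 221606 and COL1A1 1042 and 815, against COL1A1 of 11919 and 532 in WT. In KO2 DCN was 98373 and 94978 and COL1A1 3751 and 3520.5. The sum was thus high where replication genes were lowest, in KO1, KO2 and TGF-β-treated cells, 38448 to 40965 in labelled KO2 rescue, and low in the eGFP line, and its part in the results was not tested.

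The sum of the 43 rows differed between the groups. Rows with many counts weigh most in it: MCM4 was 2595 and MCM7 2747 of the 12623 in WT replicate 1. The sum was 12623 and 16933 normalized counts in WT and 6133 and 5895 under TGF-β. KO1 had 4310 and 4722, and KO2 had 5245 and 5366. The line labelled KO2 rescue had 6685 and 6545. Rescue1 had 16227 and 15946 and Rescue2 18435 and 16983, whereas the eGFP, OCT2, PRRX1 and SOX2 lines lay between 7328 and 10018. WT and the rescue clones thus stood above all other groups, and KO1 was the lowest of the 11 groups. The 2 WT libraries lay further apart than those of any other group, and their genes with over 1000 normalized counts also differed most between duplicates (median 0.18 on the log2 scale, against 0.06 to 0.16 in the other groups).

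**Figure D1:**
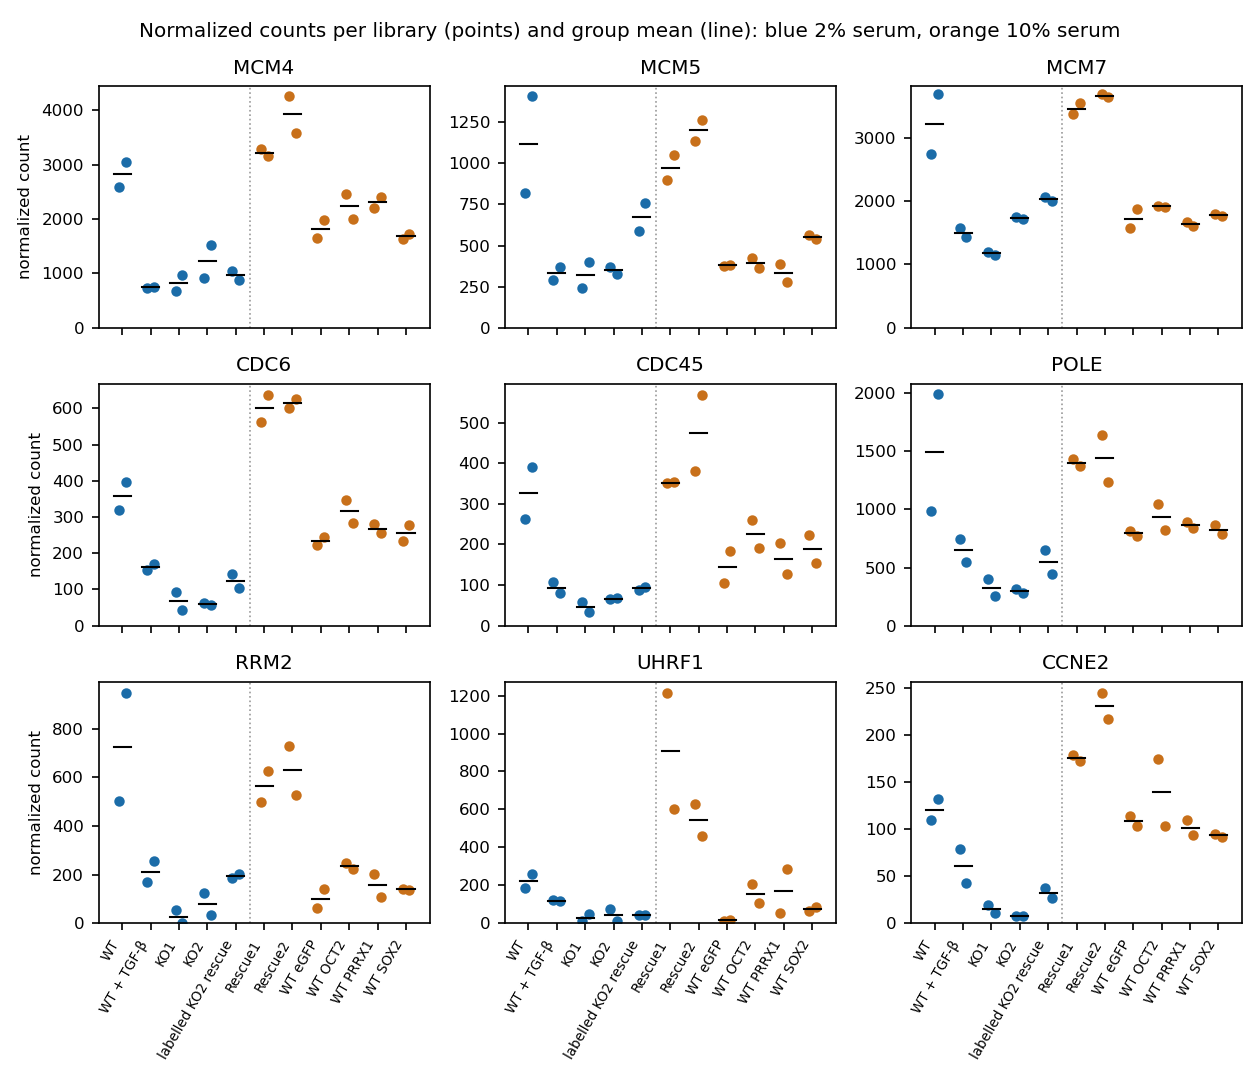
Normalized counts of 9 genes in each of the 22 libraries (points) with the mean of each group (line), on linear axes from 0; blue is 2% serum, orange 10% serum, and the dotted line divides them. WT and both rescue clones are high for MCM4, MCM7, CDC6 and POLE, while KO1, KO2, TGF-β-treated WT and, for MCM5 and MCM7, the 4 other transduced lines are low.

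Loss of SETD2 was compared with WT in the same 2% serum, for each clone on its own. The labels name no cloned WT control, so effects of deriving a clone cannot be told apart from SETD2 loss. Replication genes were lower in both clones: of the 39 tested, 22 were called lower and 0 higher in KO1, with a median log2 change of -1.79, and 22 lower and 0 higher in KO2, with a median of -1.62. A call needed an adjusted p under 0.05 by limma and an absolute log2 change over 1 of the normalized count plus 1. Among all 14585 genes, 13.1% were called lower and 12% higher in KO1, 7.29% lower and 9.02% higher in KO2, and the median change was 0 in both. Both comparisons share the WT libraries, so they are not independent of each other. In fits of only the libraries compared, the counts were 10 and 12. On the deposited log2 scale, which compresses changes, 27 and 23 genes passed the adjusted p and 0 the fold threshold. The count in KO2 was 17 without WT replicate 2.

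The helicase and its loaders were among the lower genes. MCM4, a subunit of the helicase ring, was 2595 and 3047 normalized counts in WT, 676 and 976 in KO1 and 916 and 1530 in KO2. MCM5, another subunit, was 818 and 1410 in WT, 240 and 399 in KO1 and 369 and 330 in KO2. For both genes every KO library lay below both WT libraries. CDC6, which recruits the ring to origins, went from 319 and 396 in WT to 94.2 and 44.3 in KO1 and 63.3 and 55.9 in KO2. MCM7 was called lower in KO1 (log2 change -1.44, SE 0.11, adjusted p = 8.1e-08) and was 1746 and 1715 in KO2, where the change stayed under the fold threshold. Of 9 tested origin licensing genes, 5 were called lower in KO1 and 4 in KO2, with ORC6, the small ORC subunit, lower in both. Of 5 tested genes for helicase activation, 4 and 3 were called lower. They include MCM10, a factor needed for origin firing, at 184 and 323 in WT, 14.0 and 24.6 in KO1 and 63.5 and 24.8 in KO2, with log2 changes of -3.64 (SE 0.39, adjusted p = 3.0e-06) and -2.58 (SE 0.39, adjusted p = 1.3e-04). CDC45, which joins MCM and GINS in the running helicase, and GINS3 were called lower in both clones, and GINS4 in KO1.

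All 7 tested polymerase and primase genes had negative changes in both clones, and 5 of them were called in each. POLE, the catalytic subunit of polymerase ε, was 990 and 1994 in WT, 399 and 255 in KO1 and 315 and 280 in KO2. POLA2, the regulatory subunit of polymerase α, was 267 and 266 in WT, 54.7 and 16.6 in KO1 and 47.0 and 33.7 in KO2. Its log2 change was -3.09 (SE 0.46, adjusted p = 7.4e-05) in KO1. POLA1 and POLD1, catalytic subunits of polymerases α and δ, were also lower in both. PRIM2, a primase subunit with 6.06 and 8.93 in WT, was at or under 3 in both libraries of KO1 and of KO2, which makes it at least 2.50-fold lower in each, with 3 counts per library as the floor. The call of PRIM2 in KO2 (adjusted p = 0.0407) was lost with a pseudocount of 5, without the filter and without any 1 of the 4 libraries.

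Of 7 tested clamp, loader and Okazaki fragment genes, 3 were called lower in KO1 (RFC2, RFC4, FEN1) and 3 in KO2 (RFC2, RFC4, LIG1). RFC4, a subunit of the clamp loader, had the tightest duplicates of these, at 531 and 544 in WT, 235 and 168 in KO1 and 254 and 259 in KO2. Among the fork chromatin genes, UHRF1, which guides maintenance methylation to newly copied DNA, was called lower in both clones, from 184 and 259 in WT to 11.4 and 48.0 in KO1 and 77.3 and 13.6 in KO2. Its log2 change in KO1 was -3.15 (SE 0.82, adjusted p = 0.00633). That call was lost without KO1 replicate 1 (adjusted p = 0.0774). CHAF1A, CHAF1B and TIPIN were not called. At the G1 to S step, CCNE2, a cyclin that activates CDK2, went from 110 and 133 in WT to 19.3 and 11.4 in KO1 and 7.59 and 8.25 in KO2 (log2 change in KO2 -3.77, SE 0.36, adjusted p = 1.2e-06), and CDC25A, the phosphatase that frees CDK2, was lower in both clones.

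Genes of deoxynucleotide supply had a median log2 change of -3.61 in KO1 and -3.76 in KO2 over the 4 tested. RRM2 (GRCh38, chr2:10120698-10211725, plus strand) was 502 and 947 normalized counts in WT, 55.0 and 0 in KO1, and 127 and 34.1 in KO2. The log2 change was -6.53 (SE 1.21, adjusted p = 5.0e-04) in KO1 and -3.37 (SE 1.21, adjusted p = 0.0491) in KO2. All 4 KO libraries lay below WT, but the size rests on few counts: without the KO1 library at 0, the change in KO1 was -3.62. The call in KO1 was kept without any 1 library and lost in the fit of only the libraries compared (adjusted p = 0.146). The call in KO2 was lost without any 1 of the 4 libraries, with a pseudocount of 0.5 and without the filter. TYMS, thymidylate synthase, was 244 and 54.6 in WT, 7.38 and 0 in KO1 and 42.3 and 0 in KO2, with log2 changes of -5.33 (SE 1.42, adjusted p = 0.00747) and -4.15 (SE 1.42, adjusted p = 0.0394). Its call was lost without WT replicate 1 in both clones, without KO1 replicate 2 and without KO2 replicate 2. RRM1, the large reductase subunit, was 98.7 and 125 in WT, 12.8 and 66.4 in KO1 and 5.50 and 3.02 in KO2 (log2 change in KO2 -4.45, SE 0.90, adjusted p = 0.00148). RRM1 and TK1, the salvage kinase for thymidine, were called lower in KO2 and not in KO1, where 1 library of each remained at 66.4 and 68.5.

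**Figure D2:**
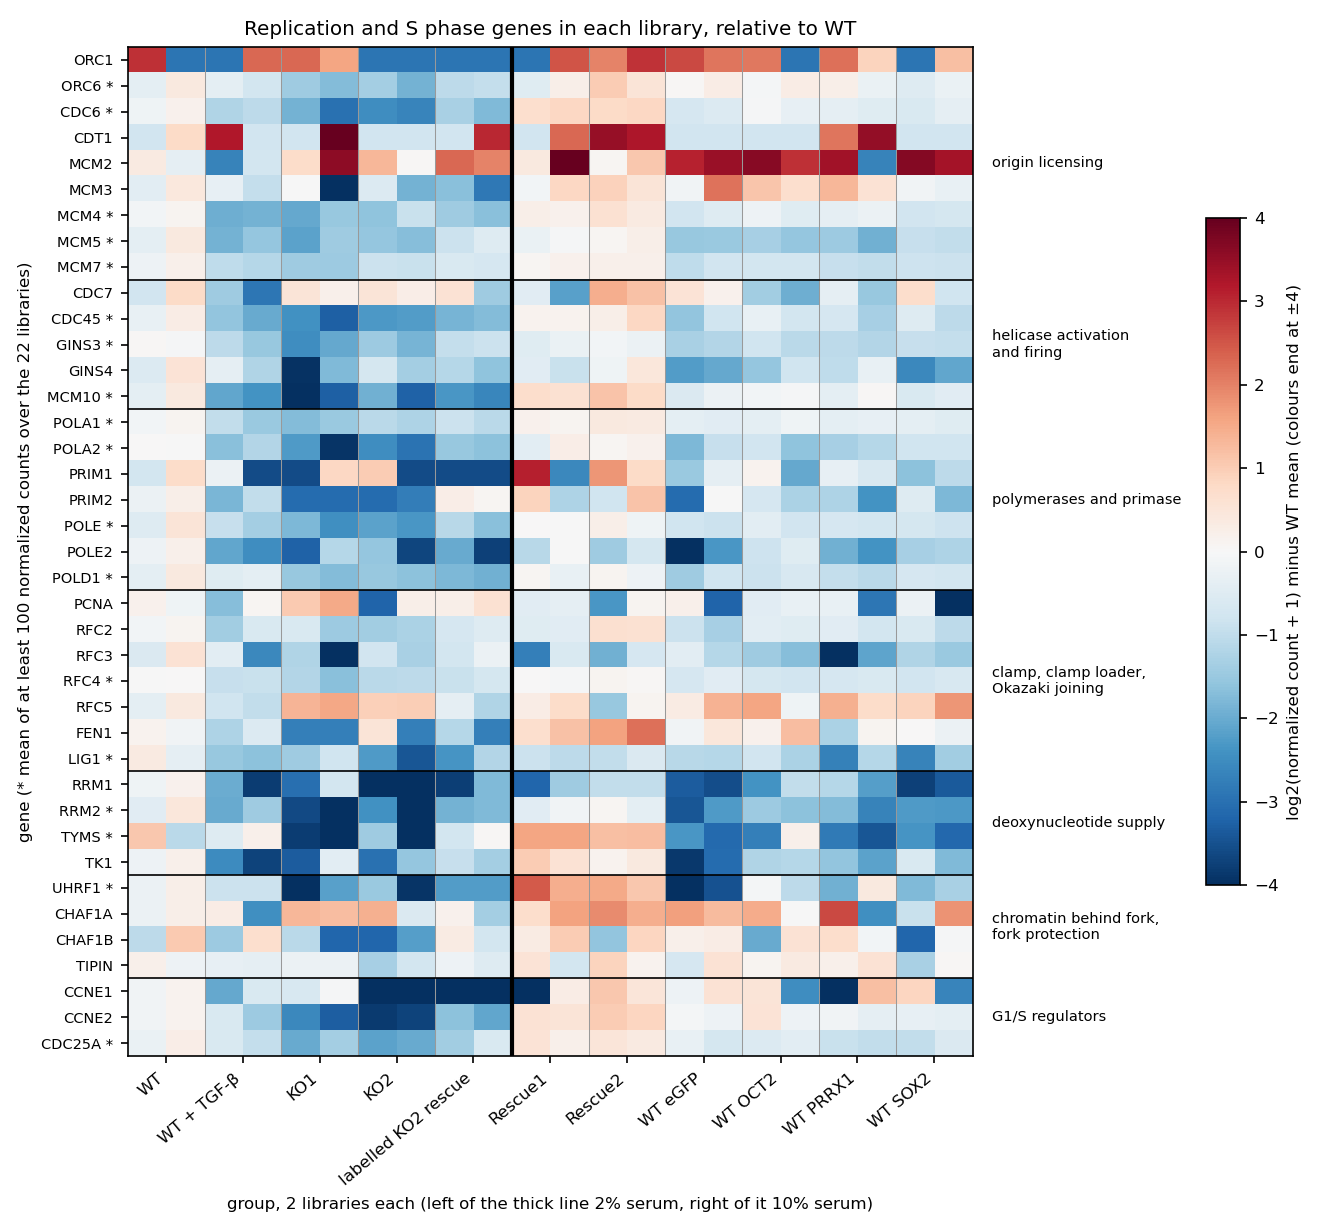
Each of the 39 tested genes (rows, grouped by role) in each of the 22 libraries (columns, in pairs by group), coloured by log2(normalized count + 1) minus the WT mean, blue for lower and red for higher, with colours ending at 4. Genes marked with a star have a mean of at least 100 normalized counts; their rows are mostly blue in KO1, KO2 and TGF-β-treated WT and near white or red in the rescue clones, except LIG1, while rows of low genes such as CDT1, PRIM1 and PCNA change between duplicates.

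The clones were compared with each other to see whether they differ for these genes. Of the 39 tested, 1 was called higher in KO1 than in KO2 and 0 lower, beside 2.48% and 4.49% of all genes, and the median change was -0.03, the same as for all genes. By the adjusted p alone, 1 was higher and 1 (MCM7) lower, beside 6.44% and 9.56% of all genes. The gene was LIG1, the ligase that joins Okazaki fragments, at 141 and 215 in KO1 and 76.9 and 34.2 in KO2 (log2 change 1.74, SE 0.55, adjusted p = 0.0456). This call was lost under several settings, with adjusted p = 0.221 without KO1 replicate 2 and 0.325 without KO2 replicate 2. The count was 5 without KO1 replicate 1, 2 without KO2 replicate 2 and 0 in a fit of only these clones. Scaled to the same total per library, 2 genes were called lower in KO1 (MCM10 and GINS4) and 0 higher, and under quantile normalization 0 lower and 3 higher. RRM2, given above, was 55.0 and 0 in KO1 and 127 and 34.1 in KO2 (log2 change -3.16, SE 1.21, adjusted p = 0.093), and the 2 clones overlapped.

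TGF-β treatment was the study's reference for an epithelial-to-mesenchymal change in WT cells. With it, 12 of the 39 tested genes were called lower and 0 higher, beside 4.26% and 3.58% of all genes, and the median log2 change was -1.12 against 0 for all genes. The 12 were MCM4, MCM5, MCM7, CDC6, MCM10, CDC45, GINS3, POLA1, POLA2, POLE, RRM1 and TK1. MCM4 was 730 and 756 with TGF-β (log2 change -1.92, SE 0.21, adjusted p = 1.6e-05), below both WT libraries and below every library of KO2. MCM10 was 56.5 and 45.3 (log2 change -2.24, SE 0.39, adjusted p = 9.4e-04) and CDC45 108 and 79.4 (log2 change -1.78, SE 0.36, adjusted p = 0.00286). TK1 was 15.3 and 6.14 (log2 change -3.10, SE 0.78, adjusted p = 0.0125) and RRM1 27.3 and 7.07 (log2 change -2.89, SE 0.90, adjusted p = 0.0379). The calls of both were lost without WT replicate 2 (adjusted p = 0.0837 and 0.167) or TGF-β replicate 2 (0.114 and 0.29), and that of RRM1 also without WT replicate 1 (0.0897) or the filter (0.059). RRM2 was 169 and 257, below both WT libraries, but was not called (log2 change -1.72, SE 1.21, adjusted p = 0.408), nor were POLD1 at 522 and 556 or TYMS at 80.5 and 133. The count was 6 without WT replicate 2 and 0 in a fit of only the 4 libraries compared.

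SETD2 loss and TGF-β were then set against each other, as the mean of both KO clones minus TGF-β-treated WT. Of the 39 tested, 10 were called lower in the KO clones (9.83% of all genes) and 2 higher (10.3% of all genes), with a median log2 change of -0.64 against -0.02. The lower genes were TYMS, RRM2, CCNE2, UHRF1, POLA2, CDC6, POLD1, CDC25A, POLE and ORC6. CCNE2 was 79.1 and 43.3 with TGF-β and 7.59 to 19.3 in the 4 KO libraries (log2 change -2.33, SE 0.31, adjusted p = 2.6e-05). POLD1 was 522 and 556 with TGF-β and 222 to 257 in the KO libraries. For TYMS the log2 change was -4.58 (SE 1.23, adjusted p = 0.00856), and for RRM2 it was -3.23 (SE 1.04, adjusted p = 0.025). MCM4, MCM5, MCM7 and GINS3 were not called in this comparison. The 2 higher genes were CDC7, the kinase that fires origins, at 9.99 and 2.96 with TGF-β and 33.0 to 41.2 in the KO libraries (log2 change 2.54, SE 0.71, adjusted p = 0.0115), and RFC5, a clamp loader subunit, at 20.0 and 17.7 against 70.0 to 106 (log2 change 2.10, SE 0.55, adjusted p = 0.00771). With either TGF-β library left out, 7 and 6 genes were called, 5 in a fit of only these libraries, and the calls of CDC7, RFC5 and TYMS were lost without TGF-β replicate 2 (adjusted p = 0.168, 0.0596 and 0.0751). That of RRM2 was lost without TGF-β replicate 1 (0.0806), TGF-β replicate 2 (0.149) or KO2 replicate 2 (0.0757), and its log2 change was -1.78 without KO1 replicate 2.

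Restored SETD2 was compared with KO2, from which the rescue clones come. Replication genes were higher in the rescue clones: 24 of the 39 tested were called higher and 0 lower, beside 7.84% and 9.65% of all genes, and the median log2 change was 1.97 against -0.03. The rescue clones grew in 10% serum and KO2 in 2%, and only the rescue clones were transduced, selected with blasticidin and cloned anew. None of these can be told apart from SETD2. CDC6 was 562 and 638 in Rescue1 and 602 and 627 in Rescue2, against 63.3 and 55.9 in KO2 (log2 change 3.33, SE 0.24, adjusted p = 6.3e-08). CCNE2 was 173 to 245 in the rescue clones against 7.59 and 8.25 (log2 change 4.51, SE 0.31, adjusted p = 3.9e-08). MCM10 was 375 to 536 against 63.5 and 24.8 (log2 change 3.39, SE 0.34, adjusted p = 2.1e-06). In these genes the 4 rescue libraries lay far above both KO2 libraries and also above the WT values given earlier.

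Genes of every role were among the 24. MCM4 was 3150 to 4264 in the rescue clones and MCM7 3368 to 3688, with log2 changes of 1.58 and 1.04. All 4 genes of deoxynucleotide supply were called. TYMS was 350 and 348 in Rescue1 and 270 and 275 in Rescue2, the tightest duplicates of any group for this gene (log2 change 5.56, SE 1.23, adjusted p = 0.00254), and the call was lost without the KO2 library at 0 (adjusted p = 0.088). RRM2 was 499 and 626 in Rescue1 and 729 and 529 in Rescue2, within the WT range of 502 to 947 but for 1 library at 499 (log2 change 3.14, SE 1.04, adjusted p = 0.0301). That call was lost without KO2 replicate 2 (adjusted p = 0.27) and, with adjusted p from 0.051 to 0.0659, without Rescue1 replicate 1, Rescue1 replicate 2 or Rescue2 replicate 1. UHRF1 was 1213 and 604 in Rescue1 and 627 and 459 in Rescue2, the highest 4 values of the 22 libraries (log2 change 4.33, SE 0.71, adjusted p = 2.2e-04). LIG1, in contrast, was 181 to 250 in the rescue clones, above KO2 but below both WT libraries, at 482 and 295. PRIM2 was 14.4 and 2.56 in Rescue1, 3.87 and 17.4 in Rescue2 and not above 3 in KO2. The mean of the rescue libraries was at least 3.19-fold higher, but Rescue1 replicate 2 was itself under the floor of 3.

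The line labelled KO2 rescue shares the 2% serum of KO2 and showed small differences. Of the 39 tested, 3 were called higher than in KO2 and 0 lower, beside 1.65% and 2.52% of all genes, with a median log2 change of 0.61 against 0. They were CCNE2 at 37.9 and 27.6 (log2 change 1.90, SE 0.36, adjusted p = 0.00256), CDC25A at 86.0 and 149 (log2 change 1.08, SE 0.30, adjusted p = 0.0338) and CDC6 at 144 and 103 (log2 change 1.02, SE 0.28, adjusted p = 0.0285), and each remained below both WT libraries. The count was 1 without KO2 replicate 2 and in a fit of only these 4 libraries, and 2 without any 1 of the other 3. With 1 library left out, the call of CCNE2 was kept (log2 change at least 1.68). CDC25A (log2 change down to 0.69) and CDC6 (down to 0.78) each lost theirs without 3 of the 4 libraries. In the limma fit of only these 4 libraries, all 3 lost their calls (adjusted p = 0.0981 for CCNE2, 0.209 for CDC25A and 0.152 for CDC6). The 1 gene called in that fit was thus none of these 3. RRM2 was 185 and 203, above both KO2 libraries, and was not called (log2 change 1.54, SE 1.21, adjusted p = 0.534).

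The rescue clones were also compared with the eGFP line, at the same serum. Origin, cloning and selection drug (blasticidin against puromycin) also differ and cannot be told apart from SETD2. Here 13 of the 39 tested were called higher in the rescue clones and 0 lower, beside 6.47% and 6.66% of all genes, and 20 passed the adjusted p alone, beside 14.9% of all genes. The median log2 change was 0.97 against 0. UHRF1 was 459 to 1213 in the rescue clones and 12.5 and 18.7 in the eGFP line (log2 change 5.38, SE 0.71, adjusted p = 4.2e-05). TK1 was 101 to 184 against 5.38 and 10.0 (log2 change 3.99, SE 0.68, adjusted p = 4.1e-04), and TYMS 270 to 350 against 22.5 and 12.6 (log2 change 4.12, SE 1.23, adjusted p = 0.0196). For these 3 genes both eGFP libraries also lay below both WT libraries in 2% serum. POLE2, an accessory subunit of polymerase ε, was 11.5 to 32.3 against 0 and 5.77 (log2 change 2.88, SE 0.85, adjusted p = 0.0181), and GINS4 33.3 to 86.1 against 12.5 and 14.3 (log2 change 1.87, SE 0.57, adjusted p = 0.0222). CDC6, MCM5, MCM7, MCM10, CDC45, POLA2, POLD1 and RFC2 were the others. RRM2 was 63.6 and 141 in the eGFP line and was not called (log2 change 2.62, SE 1.04, adjusted p = 0.0737), although all 4 rescue libraries lay above it. With a pseudocount of 5 (adjusted p = 0.0136) or in a fit of only these libraries (0.0103), RRM2 was called. Without eGFP replicate 1, 6 genes were called. The calls of TYMS and GINS4 were lost without either eGFP library, and POLE2 had a log2 change of 1.5 (adjusted p = 0.333) without eGFP replicate 1.

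**Figure D3:**
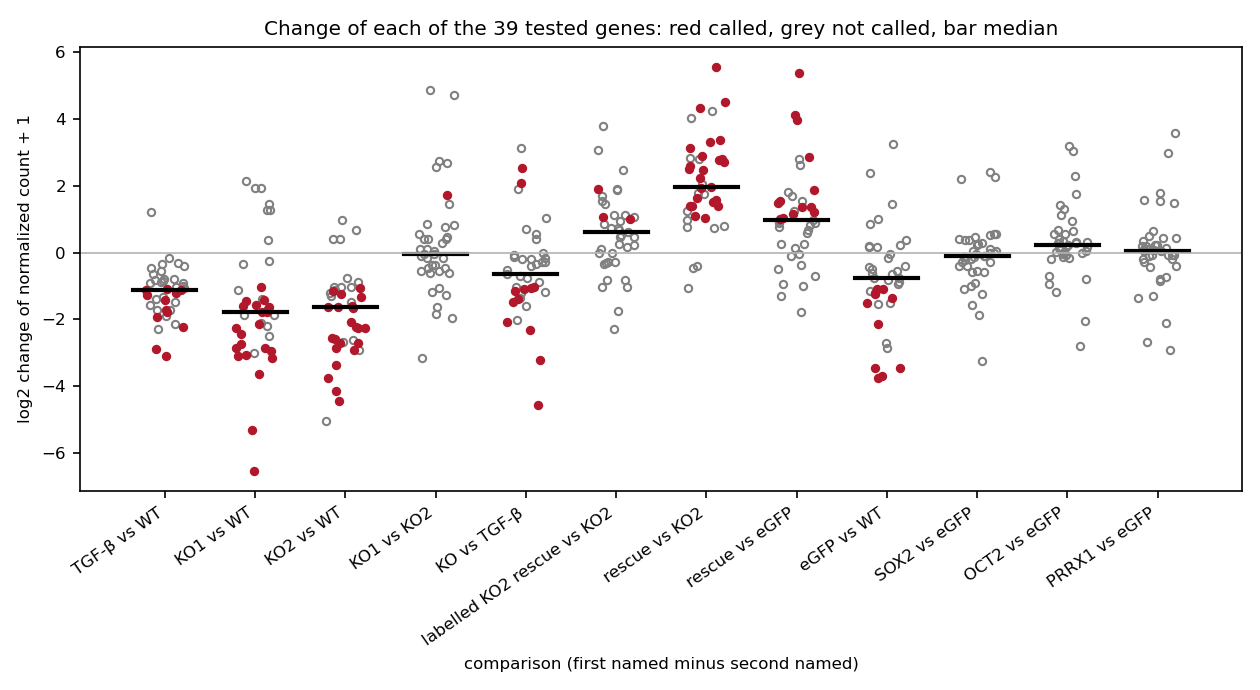
Log2 change of each of the 39 tested genes (points) in the 12 comparisons, the first named group minus the second; red points were called, grey circles were not, and the bar is the median. The median is -1.79 for KO1 and -1.62 for KO2 against WT, 1.97 for rescue against KO2 and near 0 for KO1 against KO2 and the SOX2, OCT2 and PRRX1 lines against eGFP.

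WT cells with the eGFP vector in 10% serum had lower replication genes than WT cells in 2% serum. Of the 39 tested, 11 were called lower and 0 higher, beside 6.24% and 6.49% of all genes, with a median log2 change of -0.77 against 0. UHRF1 fell from 184 and 259 to 12.5 and 18.7 (log2 change -3.75, SE 0.82, adjusted p = 0.00311). The log2 change of TK1 was -3.46 (SE 0.78, adjusted p = 0.00409) and that of POLE2 -3.70 (SE 0.98, adjusted p = 0.011). RRM1 was 10.1 and 8.54 in the eGFP line (log2 change -3.45, SE 0.90, adjusted p = 0.0103). That of GINS4 was -2.13 (SE 0.66, adjusted p = 0.0263), and the other 6 were MCM5, CDC45, GINS3, POLA2, POLD1 and RFC2. RRM2 was not called (log2 change -2.85, SE 1.21, adjusted p = 0.0998). CCNE2, at 114 and 104, lay near its WT values of 110 and 133, unlike in the KO clones. Without WT replicate 2 the count was 4, without eGFP replicate 1 it was 6, and in a fit of only these 4 libraries 3. The calls of POLE2, RRM1 and GINS4 were lost without WT replicate 2 (log2 changes -3.5, -3.28 and -1.6). That of POLE2 was also lost without eGFP replicate 1 (-2.32) and that of RRM1 without eGFP replicate 2 (-3.34). That of GINS4 was lost without eGFP replicate 1 (-2.04) or eGFP replicate 2 (-2.22). Serum, vector and puromycin selection cannot be told apart here.

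The SOX2, OCT2 and PRRX1 lines were compared with the eGFP line to see what each factor changed. By limma, 0 of the 39 tested genes were called in each, beside 0.0206%, 0.0343% and 0.0411% of all genes, and 3, 4 and 4 had an unadjusted p under 0.05, beside 6.76%, 7.03% and 4.61% of all genes. The median log2 changes were -0.10, 0.22 and 0.05. RRM2 was 249 and 223 in the OCT2 line, 205 and 108 in the PRRX1 line and 143 and 139 in the SOX2 line, with log2 changes of 1.30, 0.64 and 0.57 (SE 1.21 in each). UHRF1, picked after its values were seen, was 56.6 to 286 in the 6 libraries against 12.5 and 18.7 in the eGFP line. It was not called in any of these lines. MCM4 was 2005 to 2467 in the OCT2 and PRRX1 lines, 1638 and 1732 in the SOX2 line and 1652 and 1982 in the eGFP line, and it was not called in any of them.

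Not every gene of the list followed the rest. MCM2 (chr3:127598410-127622436, plus strand) had too few counts to follow, with 7.21 and 3.99 in WT, 9.54 and 76.0 in KO1 and 15.2 and 5.63 in KO2. TGF-β-treated cells had 0 and 2.84. It was 5.74 to 135 in the rescue clones and 53.1 and 69.7 in the eGFP line. The log2 change was 2.15 in KO1 (SE 1.60, adjusted p = 0.313), 0.69 in KO2 (SE 1.60, adjusted p = 0.807), -1.71 with TGF-β (SE 1.60, adjusted p = 0.561), 0.79 in the rescue clones against KO2 (SE 1.38, adjusted p = 0.706) and 3.27 in the eGFP line against WT (SE 1.60, adjusted p = 0.154). In the other comparisons it was 1.46 for KO1 against KO2, 3.13 for KO against TGF-β, 1.45 for labelled KO2 rescue against KO2, -1.79 for rescue against eGFP, and 0.22, 0.01 and -2.93 for the SOX2, OCT2 and PRRX1 lines, none called. The 5 genes least like the median of the others over the 11 group means were RFC5 (Pearson r = -0.37), PCNA (-0.17), MCM2 (-0.03), CDC7 (0.04) and CDT1 (0.16). All 5 had a mean under 100 normalized counts and shared libraries with the median they were compared with, so a weak r is no finding by itself.

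RFC5, of the clamp loader, had close duplicates in the KO clones. It was 26.9 and 47.6 in WT, 93.5 and 106 in KO1 and 70.0 and 71.7 in KO2, higher in every KO library than in WT, and was not called against WT. PCNA, the sliding clamp, was 66.7 and 51.3 in WT, 121 and 168 in KO1, and 5.41 and 69.7 in KO2. CCNE1, the other cyclin E, was 29.4 and 35.5 in WT, 20.5 and 31.4 in KO1 and 0 in both libraries of KO2 and of labelled KO2 rescue, in 1 of Rescue1 and in 1 of the PRRX1 line. CDT1, the licensing factor, was at 0 in 13 of the 22 libraries and reached 40.4 at most. ORC1, PRIM1, RFC3, CHAF1A and CHAF1B had means from 7.30 to 20.6, MCM3 one of 37.1 and TIPIN, a fork protection factor, one of 52.4, and none of these was called in any of the 12 comparisons. MCM6, GINS1 and GINS2 reached 13.0, 4.82 and 17.7 at most, and E2F2 had 2.51 in 1 library and 0 in the other 21. Without a test, no change is read from these 4 rows.

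Other genes of replication, 56 in a list of their own, had medians of the same sign as the replication genes above against WT and KO2, and closer to 0. In KO1, 25 were called lower and 2 higher (median log2 change -1.04), and in KO2 20 lower and 1 higher (-0.82). They include PCLAF, a PCNA partner (-5.88 in KO1 and -3.60 in KO2), GMNN, which blocks relicensing (-3.35 and -2.34), and DNMT1, the maintenance methyltransferase that works with UHRF1 (-1.48 and -1.32). RRM2B, the p53-inducible reductase subunit, was called higher in both (1.85 and 1.91), opposite to RRM2. In the rescue clones 22 were called higher than in KO2 and 0 lower (0.92), and with TGF-β 8 lower and 1 higher (-0.56), the higher one being CCND1, cyclin D1. In the eGFP line 9 were lower than in WT. CCND1 was 6803 and 3852 normalized counts in WT and 18682 and 17486 with TGF-β. It was also 14380 and 13694 in KO1, against 5654.5 and 5464.7 in KO2.

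Mitosis genes, expressed in G2 and M, had medians further from 0 than the replication genes in the same comparisons. Of 30 tested, 25 were called lower in KO1 (median log2 change -3.34), 25 in KO2 (-2.53), 20 with TGF-β (-1.91) and 15 in the eGFP line (-1.42), and 25 were higher in the rescue clones than in KO2 (2.23). MKI67, the Ki-67 antigen of cycling cells, had log2 changes of -5.46 in KO1, -3.26 in KO2 and -2.51 with TGF-β. Where KO1 and KO2 differed in 1 of 39 replication genes, 11 of the 30 mitosis genes were lower in KO1. The lists were not tested against each other.

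Of 9 tested genes that hold cells in G1, CDKN1C and CDKN2B, inhibitors of cyclin-dependent kinases, were called higher in KO1 (2.02 and 1.34) and in KO2 (2.14 and 1.04). CDKN2D, another such inhibitor, was called lower in KO2 (-1.33). In all, 2 of the 9 were called higher and 1 lower in KO1, and 2 higher and 2 lower in KO2, beside the shares of all genes given above. With TGF-β, CDKN2B was higher (2.17) and CDKN1C lower (-2.00). CDKN2A and CDKN2B were lower in the rescue clones than in KO2 (-3.21 and -2.22). CDKN2A was not called in KO2 against WT (0.41). It was 66.0 to 82.7 in the rescue clones and 576.5 and 467.4 in WT, and was also called lower in the rescue clones than in the eGFP line (-2.62). CDKN2B was not called against the eGFP line (-0.64). CDKN1C was not lower in the rescue clones than in KO2: it was 963 to 1139 in the rescue clones and 636 and 747 in KO2, and 1895 and 1669 in the eGFP line. CDKN1A passed the adjusted p by limma under the fold threshold, higher in KO1 (0.60), in KO2 (0.32) and with TGF-β (0.48). It was lower in the rescue clones than in KO2 (-0.41) but higher than in the eGFP line (0.75). RBL1, the p107 pocket protein, itself a gene under E2F control, was lower in KO1, KO2 and with TGF-β (-2.28, -1.67 and -1.05) and higher in the rescue clones than in KO2 (2.38). The medians of the list were near 0, from -0.18 in the eGFP line to 0.32 in KO2 against WT.

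**Figure D4:**
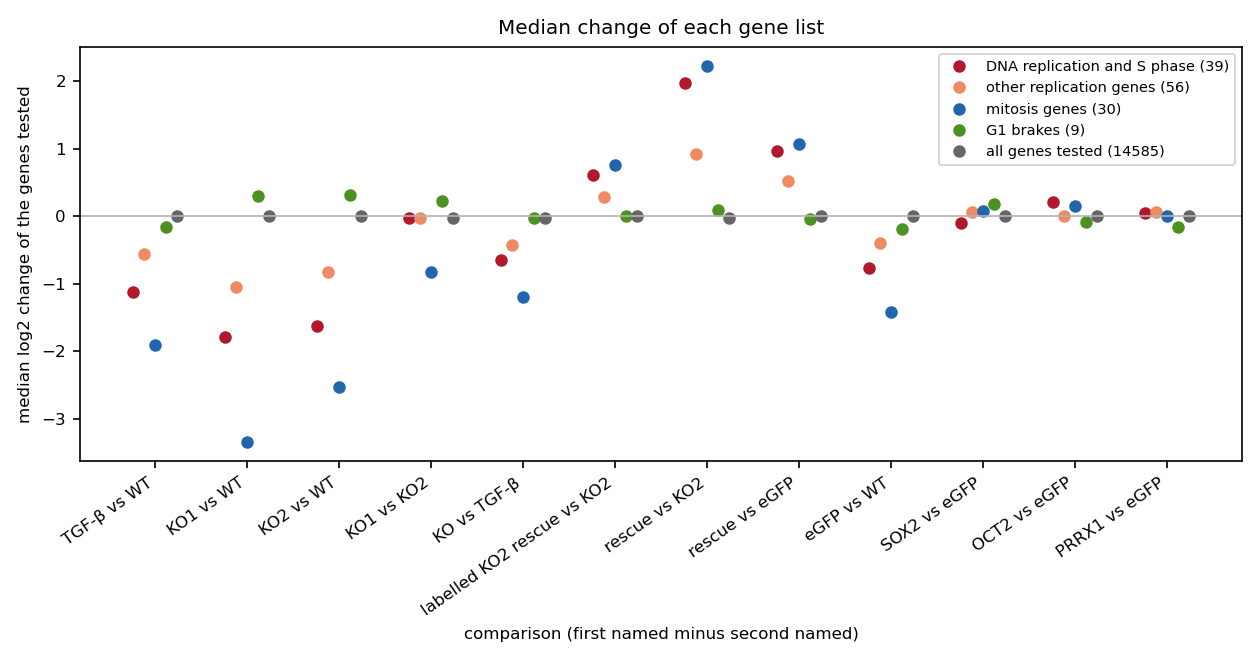
Median log2 change of the genes tested in each list (points, with the number of genes in the key) in the 12 comparisons. The mitosis genes lie furthest from 0 in KO1 against WT (-3.34) and the replication and S phase genes follow in the same direction (-1.79), while all genes tested stay within 0.03 of 0.

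The genes outside the list that were most like it over the 22 libraries, by Pearson r with the median of the 39 tested genes, were ESCO2 and NCAPG2 (0.945 each), AFG3L2 (0.943), RAD51AP1 (0.938), AURKA (0.927), DNMT1 and CEP55 (0.926 each), FOXM1 (0.925), and FANCD2 and PRC1 (0.924 each). They were picked as the highest of all genes tested, and the 22 points share 11 groups.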

How the data were processed

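RNA-seq of 22 RPTEC libraries (150 bp paired-end, TruSeq Stranded mRNA) was used. The authors quantified transcripts with salmon 1.9.0 on Ensembl cDNA of GRCh38, analysed them with DESeq2 1.26.0 and deposited log2 values for 36859 genes. These were read as variance-stabilized, since all libraries share a lowest value of 11.32, and the transformation was inverted to normalized counts. The deposited values are not read counts, so no count model was used. Symbols and positions are from GENCODE 44, and promoters from RefSeq. limma 3.58.1 in R 4.3.3 (trend, 1 fit of 22 libraries with group means, Benjamini-Hochberg over 14585 genes) was run on log2(normalized count + 1). The fit was tried on simulated counts with changes planted only in genes with a mean of at least 50, which says nothing of lower rows. The genes and lists were chosen with earlier results of these data known. Named in each comparison were RRM2, MCM2 and the 5 called genes with the largest change whose libraries did not overlap; others were added after their values were seen. Replicate numbers did not pair libraries: deviations from group means correlated at -0.08 to 0.05 over 55 pairs of groups. Whether counting used the strand is not given in the sources used here, so genes overlapping others, such as TYMS and ENOSF1, are uncertain. Other settings tried were quantile normalization, equal totals, other pseudocounts (0.5, 5), testing without a filter or above a mean of 50, fits of the compared libraries only, a replicate block, the deposited values and each library left out. The values of 1 marker gene are not reported here.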

Additional observations from a re-analysis of the deposited data

Results flagged for a closer look

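Of the 39 tested genes, 2 differed between the KO1 and KO2 clones at an adjusted p under 0.05 by limma. LIG1 was higher in KO1 by 1.74 on the log2 scale (adjusted p = 0.0456, 141 and 215 against 76.9 and 34.2 normalized counts). MCM7 differed by -0.56, under the fold threshold of a call, with 1196 and 1151 normalized counts in KO1 and 1746 and 1715 in KO2. Groups of 2 libraries are too small to say which library of a pair is outlying. The WT pair, used in every comparison against WT, lay furthest apart, as given above. Of genes higher with TGF-β, COL1A1 (11919 and 532 in WT replicates 1 and 2), AQP1 (123.7 and 4.8) and CCND1 (6803 and 3852) were higher in WT replicate 1. CDKN2B (172.2 and 199.6) was not. These genes were picked after their values were seen, and the cause was not tested.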

How the results depend on the processing

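Over all comparisons and other settings, 133 counts of called genes stayed within 1.5 times the value reported and 29 did not. On the deposited log2 values 0 genes were called in each comparison, because no change passed 1 on that compressed scale, while 18 (TGF-β), 27 (KO1), 23 (KO2), 1 (KO1 vs KO2), 11 (KO vs TGF-β), 2 (labelled KO2 rescue), 24 (rescue vs KO2), 21 (rescue vs eGFP) and 20 (eGFP vs WT) passed the adjusted p. Fits of only the libraries compared, with fewer samples to estimate the spread, called 0 with TGF-β, 10 in KO1, 12 in KO2, 0 for KO1 vs KO2, 5 for KO vs TGF-β, 1 for labelled KO2 rescue and 3 for eGFP vs WT. For KO1 vs KO2 the count was 0 without the filter, 3 under quantile normalization, 2 with equal totals and 0 with the replicate block, and the cause was not tested. Equal totals shifted the median of all genes by -0.20 with TGF-β, -0.39 in KO1, -0.20 in KO2 and 0.29 in rescue vs KO2, and the counts were then 17, 26, 25 and 27, in the same direction as reported.

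With 1 library left out, the counts ranged from 6 to 11 with TGF-β, 19 to 22 in KO1, 17 to 20 in KO2, 1 to 5 for KO1 vs KO2, 6 to 14 for KO vs TGF-β, 1 to 2 for labelled KO2 rescue, 18 to 24 for rescue vs KO2, 6 to 13 for rescue vs eGFP and 4 to 11 for eGFP vs WT. A group left with 1 library was assumed to vary like the others. MCM2 changed sign: its log2 change in the OCT2 line was -0.03 under quantile normalization and -0.34 to 0.36 with 1 library left out, in rescue vs KO2 -0.22 to 1.80, and in the PRRX1 line -5.95 to 0.08. With the replicate number as a block, 12 genes were called with TGF-β, 22 in KO1, 20 in KO2, 12 for KO vs TGF-β, 3 for labelled KO2 rescue, 25 for rescue vs KO2, 13 for rescue vs eGFP and 10 for eGFP vs WT. The block ended the calls of RRM2 (adjusted p = 0.0504) and PRIM2 (0.0506) in KO2 and of LIG1 between the clones (0.0513). Of the values of named genes, 663 kept direction and side of the threshold, 127 were no longer called, 4 became called and 5 changed sign. Read depth was not used here, so the precision of low rows is seen only from their duplicates.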
